A study of Homo sapiens with 10 samples.

Results

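The 10 genes of the ATF4-CHOP stress response described here were read in C4-2 prostate cancer cells that express the scaffold protein β-arrestin 1 (ARRB1). They are the transcription factors ATF3, ATF4, ATF5, DDIT3 (CHOP), CEBPB and CEBPG, the pseudokinase TRIB3, the chromatin-associated cofactor NUPR1, the phosphatase subunit PPP1R15A (GADD34) and the kinase EIF2AK4 (GCN2). The genes were chosen by name, as members of 1 pathway, with earlier results of these data known. Every probe annotated to them was taken, which gave 14 of the 48801 probes and 10 of the 18664 genes on the arrays. There were 2 arrays of nucARRB1 cells, 2 of wtARRB1 cells, 3 of GFP cells and 3 of parental cells. C4-2 is an established human prostate cancer line derived from LNCaP, and the sample labels name no treatment of the cultures. NucARRB1 cells stably express ARRB1 fused to GFP and to nuclear localisation tags, wtARRB1 cells stably express the wild-type fusion, and GFP cells carry the empty GFP vector. The 3 transfected lines share nucleofection and G418 selection, to which the parental cells are not said to have been exposed. The series calls the arrays of a group biological replicates, but nothing says whether they came from separate clones or transfections, so the p-values measure the spread between these arrays, which may be technical. The study asked how wild-type and nuclear ARRB1 alter gene expression, and both lines were set here against the GFP and the parental cells and against each other.

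The integrated stress response joins several kinases that phosphorylate the translation factor eIF2α. GCN2 is activated by uncharged tRNA, PERK by misfolded protein in the endoplasmic reticulum (ER), HRI by heme shortage and mitochondrial stress, and PKR by double-stranded RNA. Phosphorylated eIF2α slows translation in general but favours that of ATF4 through upstream reading frames, so the ATF4 protein can change without its mRNA. ATF4 and its partners of the C/EBP family then switch on genes for amino acid supply, followed by the further regulators ATF3, CHOP, TRIB3 and NUPR1, while GADD34 brings the phosphatase that closes the loop. Arrays read mRNA alone, so neither phosphorylation nor translation was measured. In bulk RNA, a change in the share of cells that express a gene and a change of its level per cell cannot be told apart.

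All values are quantile-normalised log2 intensities, for which the median of every array was 6.303. A change is the difference of group means on this log2 scale, with the standard error (SE) of the limma fit over all 10 arrays, and a gene was called at a Benjamini-Hochberg adjusted p, over all 48801 probes, of 0.01 or less. Each gene was read from its brightest probe, and the dimmer probes of ATF3, ATF4 and NUPR1 are given beside it. Array values correlated at 0.9818 to 0.9921 within groups and at 0.9599 to 0.9894 between groups. Of 10 luminal prostate markers 8 were measured, with means of 6.59 (KLK3) to 12.21 (KRT18), and KLK3, which encodes prostate-specific antigen, lay close to the array median. The mean over these markers per array was 8.88 to 9.13 in nucARRB1, 8.97 to 9.03 in wtARRB1, 8.49 to 8.86 in GFP and 8.77 to 9.01 in parental cells. All 6 fibroblast markers lay at 6.17 to 6.51, near the array median, and the blood markers (5 of 6 measured) at 6.17 to 7.36, with PTPRC at 6.31. The 5 endothelial markers lay at 6.13 to 7.38, with a mean per array of 6.50 to 6.52 in nucARRB1, 6.59 to 6.62 in wtARRB1, 6.32 to 6.47 in GFP and 6.37 to 6.44 in parental cells. Of the endothelial markers VWF, named after its values were seen like the other markers with a change here, was called higher in wtARRB1, by 0.57 against GFP (adjusted p = 0.00716) and 0.76 against parental cells (adjusted p = 0.00157). Of the luminal markers TMPRSS2 was called higher in nucARRB1 against GFP (1.40, adjusted p = 0.00558), FOLH1 higher in wtARRB1 against GFP (1.14, adjusted p = 0.000875) and TMEFF2 lower in wtARRB1 against parental cells (-1.81, adjusted p = 0.00106), and the part of these marker changes in the results was not tested. Of the 4 ARRB1 probes, ILMN_1819608 was called lower in wtARRB1 against GFP (-0.76, adjusted p = 0.00714), and no probe was called higher. ILMN_1730620, not called in any comparison, read 6.76 to 7.04 on the 4 ARRB1 arrays and 7.12 to 7.42 on the 6 control arrays. Since ARRB1 was expressed from a synthetic coding sequence that the probes may not match, it did not check the labels.

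Most of the 10 genes were higher in both ARRB1 lines. Since they were chosen with earlier results of these data known, the shares of all genes beside them describe and do not test. In nucARRB1 against GFP, 7 rose (ATF3, DDIT3, CEBPB, CEBPG, TRIB3, NUPR1 and PPP1R15A), 1 fell (ATF5), and ATF4 and EIF2AK4 were not called, while 4.97% of all genes were called higher and 5.89% lower. In wtARRB1 against GFP, 7 rose (ATF3, ATF4, DDIT3, CEBPB, CEBPG, TRIB3 and NUPR1) and 0 fell by limma, with 0 lower also at an unadjusted p under 0.05, against 4.26% of all genes called higher and 4.7% lower. The median change of the 10 was 1.06 in nucARRB1 and 1.19 in wtARRB1, while the median over all genes was -0.005 and -0.0031. Both comparisons use the same GFP arrays and are therefore not independent of each other. For 8 of the 10 genes, all 4 ARRB1 arrays lay above all 6 control arrays, a pattern found in 6.29% of all genes. The gap between the lowest ARRB1 array and the highest control array was 1.09 for DDIT3, 1.03 for ATF3 and 0.71 for TRIB3, and only 0.06 for PPP1R15A and 0.05 for ATF4.

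**Figure D1:**
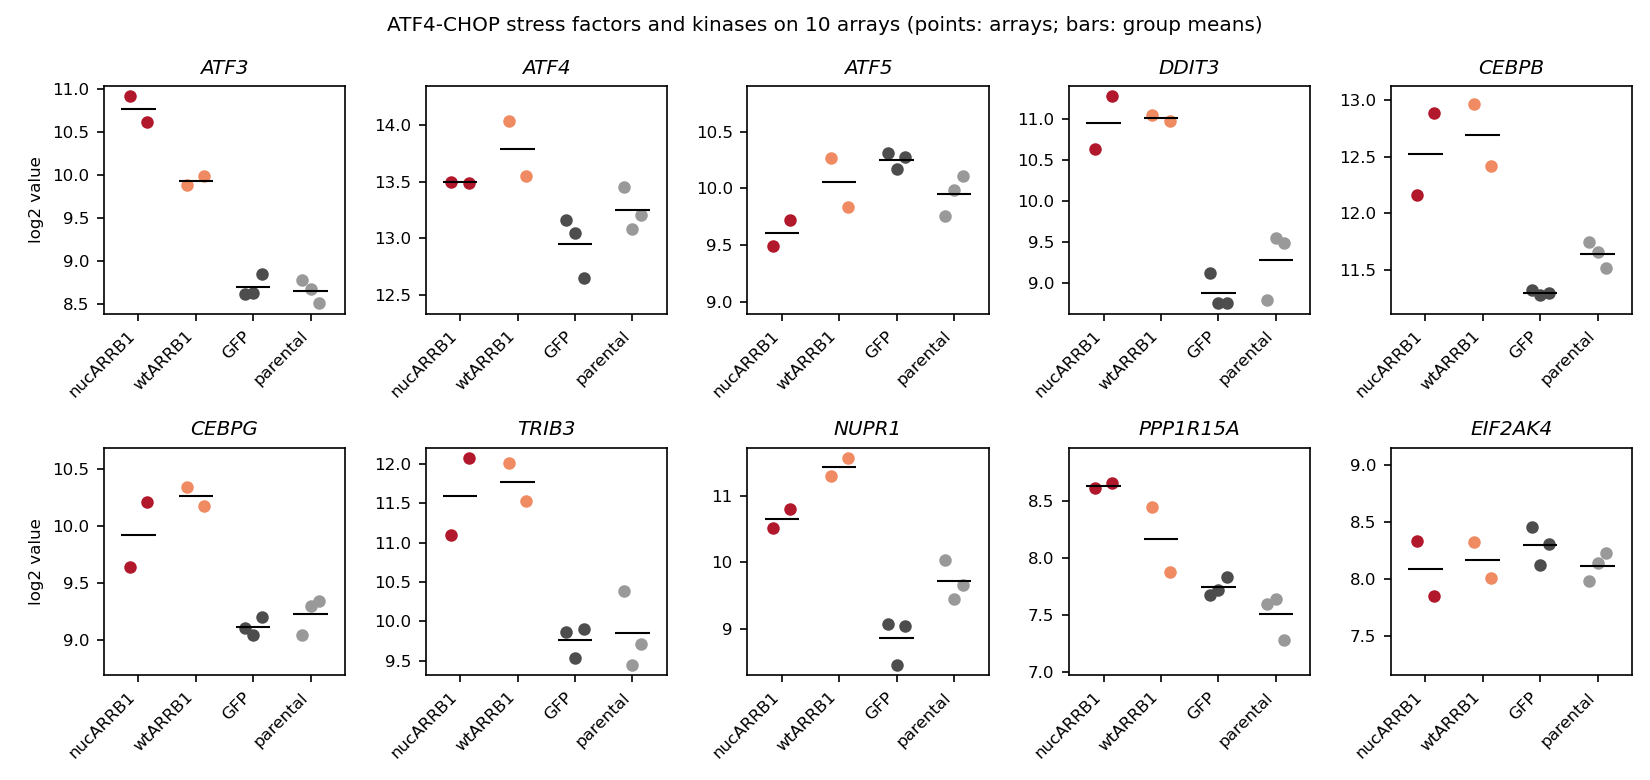
Log2 value of each of the 10 genes on every array, by group, with a bar at the group mean and a separate vertical scale for each gene. DDIT3, ATF3 and TRIB3 show the widest gaps between the 4 ARRB1 arrays and the 6 control arrays (1.09, 1.03 and 0.71), ATF5 is lowest in nucARRB1, and the 4 groups of EIF2AK4 overlap.

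ATF4 heads the response as the factor whose translation follows eIF2α phosphorylation. Its chosen probe read 13.50 and 13.49 in nucARRB1, 14.03 and 13.55 in wtARRB1, 13.16, 13.05 and 12.65 in GFP, and 13.45, 13.08 and 13.21 in parental cells. Both ARRB1 lines lay above both control lines, but parental replicate 1 came within 0.05 of the lowest ARRB1 array. In wtARRB1 ATF4 rose by 0.84 against GFP (1.79-fold, SE 0.164, adjusted p = 0.00332), a call that was lost without wtARRB1 replicate 1 (0.59, adjusted p = 0.0849) or without GFP replicate 3 (0.69, adjusted p = 0.0189). Leaving out an array of an ARRB1 pair leaves 1 array in that line, which is then assumed to vary like the arrays of the other groups, here and for every gene below. In nucARRB1 the change was 0.54 (SE 0.164, adjusted p = 0.0496). It passed the threshold under median scaling (0.63, adjusted p = 0.00937), without normalisation between arrays (0.66, adjusted p = 0.00708) and as the mean of the gene's probes (0.66, adjusted p = 0.00278). Against parental cells the changes were 0.25 in nucARRB1 (adjusted p = 0.571) and 0.55 in wtARRB1 (adjusted p = 0.0732), neither of them called.

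The next probe of ATF4 gave the same order of group means, with wtARRB1 highest and GFP lowest. ILMN_2358457 read 8.99 and 9.24 in nucARRB1, 9.13 and 9.14 in wtARRB1, 8.38, 7.83 and 8.02 in GFP, and 8.70, 8.41 and 8.59 in parental cells. On this probe ATF4 rose in both lines against GFP, by 1.04 in nucARRB1 (adjusted p = 0.000182) and by 1.06 in wtARRB1 (adjusted p = 0.000207), and the 2 ARRB1 lines overlapped. Against parental cells its changes of 0.55 (adjusted p = 0.0328) and 0.57 (adjusted p = 0.0322) were not called. The third probe, ILMN_1783394, lay near the array median at 6.21 to 6.83 and was called in neither line. Over the 10 arrays the chosen probe correlated with ILMN_2358457 at r = 0.838 and with ILMN_1783394 at r = 0.515.

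EIF2AK4 encodes GCN2, the eIF2α kinase that senses amino acid shortage. It read 8.33 and 7.85 in nucARRB1, 8.32 and 8.01 in wtARRB1, 8.46, 8.12 and 8.31 in GFP, and 7.98, 8.14 and 8.23 in parental cells. The 4 groups overlapped, and the members of each ARRB1 pair lay farther apart than the group means. The change against GFP was -0.21 in nucARRB1 (95% confidence interval -0.53 to 0.11, adjusted p = 0.593) and -0.13 in wtARRB1 (-0.45 to 0.19, adjusted p = 0.814), so these arrays set bounds on a change of the kinase mRNA and say nothing of its activity.

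ATF3, a repressor and activator of the ATF/CREB family that is induced by many stresses, was separated by group in the ARRB1 lines. It read 10.91 and 10.61 in nucARRB1, 9.88 and 9.98 in wtARRB1, 8.62, 8.63 and 8.85 in GFP, and 8.78, 8.67 and 8.51 in parental cells. Every nucARRB1 array lay above every wtARRB1 array, every wtARRB1 array lay above every control array, and the control lines overlapped. ATF3 rose 4.18-fold in nucARRB1 (log2 change 2.06, SE 0.126, adjusted p = 9.24e-08) and 2.35-fold in wtARRB1 (1.23, SE 0.126, adjusted p = 1.68e-05) against GFP, and by 2.11 and 1.28 against parental cells (adjusted p = 3.37e-07 and 3.08e-05). The dimmer probe ILMN_1661109 lay at 5.98 to 6.36 on all 10 arrays, below the array median on most of them, and was called in no comparison. Its correlation with the chosen probe was r = -0.222, and averaging both probes lowered the change to 0.93 in nucARRB1 and 0.54 in wtARRB1 against GFP, both still called.

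DDIT3 encodes CHOP, a C/EBP family factor linked to cell death under prolonged ER stress. It read 10.63 and 11.28 in nucARRB1, 11.05 and 10.98 in wtARRB1, 9.12, 8.75 and 8.75 in GFP, and 8.79, 9.55 and 9.49 in parental cells. The 4 ARRB1 arrays stood together well above the controls, and both wtARRB1 arrays lay within the range of the nucARRB1 pair. DDIT3 rose 4.23-fold in nucARRB1 (2.08, SE 0.209, adjusted p = 8.65e-06) and 4.41-fold in wtARRB1 (2.14, SE 0.209, adjusted p = 1.19e-05) against GFP, and by 1.68 and 1.74 against parental cells (adjusted p = 0.000131 and 0.000151). These calls held in each of the 20 other settings tried.

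CEBPB and CEBPG encode the C/EBP factors β and γ, which form dimers with ATF4. CEBPB read 12.16 and 12.88 in nucARRB1, 12.96 and 12.42 in wtARRB1, 11.33, 11.28 and 11.30 in GFP, and 11.75, 11.66 and 11.52 in parental cells. The GFP arrays were the tightest of the groups, and the parental arrays all lay above them. CEBPB rose 2.32-fold in nucARRB1 (1.22, SE 0.180, adjusted p = 0.000255) and 2.61-fold in wtARRB1 (1.38, SE 0.180, adjusted p = 0.000127) against GFP. Against parental cells it rose by 0.88 in nucARRB1 (adjusted p = 0.0058) and by 1.04 in wtARRB1 (adjusted p = 0.00222). The call in nucARRB1 against parental was lost without nucARRB1 replicate 2 (0.52, adjusted p = 0.0916), without any one of the GFP replicates (adjusted p = 0.0111, 0.0128 and 0.0123), and without parental replicate 2 or 3 (0.0253 and 0.036). The call in wtARRB1 against parental was lost without wtARRB1 replicate 1 (0.78, adjusted p = 0.0507) and without parental replicate 2 or 3 (0.0133 and 0.0175).

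CEBPG read 9.64 and 10.21 in nucARRB1, 10.34 and 10.18 in wtARRB1, 9.10, 9.04 and 9.20 in GFP, and 9.04, 9.30 and 9.34 in parental cells. NucARRB1 replicate 1 was the lowest of the ARRB1 arrays, 0.30 above the highest control array. CEBPG rose 1.76-fold in nucARRB1 (0.81, SE 0.149, adjusted p = 0.00156) and 2.21-fold in wtARRB1 (1.15, SE 0.149, adjusted p = 0.000129) against GFP. In nucARRB1 the call was lost without its replicate 2 (0.53, adjusted p = 0.0324) and without GFP replicate 2 (0.77, adjusted p = 0.0102), under median scaling (0.59, adjusted p = 0.0587) and without normalisation between arrays (0.62, adjusted p = 0.0959), and in wtARRB1 without normalisation (0.77, adjusted p = 0.0256). Against parental cells CEBPG rose by 0.70 in nucARRB1 (adjusted p = 0.00771) and by 1.03 in wtARRB1 (adjusted p = 0.000625). The call in nucARRB1 was lost without nucARRB1 replicate 2 (0.42, adjusted p = 0.129) and without any one of the 6 control arrays (adjusted p from 0.0137 to 0.0293), and the call in wtARRB1 without wtARRB1 replicate 1 (0.96, adjusted p = 0.0118).

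ATF5, an ATF4-related factor tied to the mitochondrial stress response and to cell survival, was the 1 gene that fell. It read 9.49 and 9.72 in nucARRB1, 10.27 and 9.84 in wtARRB1, 10.31, 10.17 and 10.28 in GFP, and 9.76, 9.99 and 10.11 in parental cells. The nucARRB1 arrays were below all 8 others, with nucARRB1 replicate 2 only just under parental replicate 1. ATF5 fell to 0.637-fold of GFP in nucARRB1 (-0.65, SE 0.141, adjusted p = 0.00561) and differed by -0.20 in wtARRB1 (adjusted p = 0.589). The call was lost without nucARRB1 replicate 1 (-0.54, adjusted p = 0.083), without any one of the GFP arrays (0.0255, 0.0139 and 0.0246) and without parental replicate 2 (0.0104). Against parental cells the change in nucARRB1 was -0.35 (adjusted p = 0.207).

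TRIB3, a pseudokinase that binds AKT and restrains ATF4 and CHOP, read 11.10 and 12.08 in nucARRB1, 12.02 and 11.53 in wtARRB1, 9.86, 9.54 and 9.90 in GFP, and 10.39, 9.45 and 9.71 in parental cells. NucARRB1 replicate 2 and wtARRB1 replicate 1 were the high arrays, and parental replicate 1 was the highest control. TRIB3 rose 3.53-fold in nucARRB1 (1.82, SE 0.264, adjusted p = 0.000217) and 4.02-fold in wtARRB1 (2.01, SE 0.264, adjusted p = 0.000135) against GFP, and by 1.74 and 1.92 against parental cells (adjusted p = 0.000597 and 0.00042).

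NUPR1, a small stress-induced protein of chromatin that modulates transcription, read 10.51 and 10.80 in nucARRB1, 11.29 and 11.57 in wtARRB1, 9.07, 8.46 and 9.04 in GFP, and 10.03, 9.45 and 9.66 in parental cells. Its 4 groups did not overlap at all, in the order wtARRB1, nucARRB1, parental and GFP. NUPR1 rose 3.49-fold in nucARRB1 (1.80, SE 0.188, adjusted p = 1.18e-05) and 5.97-fold in wtARRB1 (2.58, SE 0.188, adjusted p = 7.98e-07) against GFP. Against the higher parental arrays it rose by 0.94 in nucARRB1 (adjusted p = 0.00486) and by 1.72 in wtARRB1 (adjusted p = 7.62e-05), and the call in nucARRB1 was lost without its replicate 2 (0.80, adjusted p = 0.0383) or without parental replicate 2 (0.0334) or 3 (0.0269). The other probe, ILMN_1810560, gave changes of 1.97 in nucARRB1 and 2.54 in wtARRB1 against GFP and tracked the chosen one at r = 0.989 over the 10 arrays.

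PPP1R15A encodes GADD34, which recruits protein phosphatase 1 to eIF2α and so reverses the signal. It read 8.61 and 8.66 in nucARRB1, 8.45 and 7.88 in wtARRB1, 7.67, 7.72 and 7.83 in GFP, and 7.59, 7.64 and 7.28 in parental cells. The nucARRB1 pair was close together, while wtARRB1 replicate 2 lay only 0.06 above the highest control array. PPP1R15A rose 1.86-fold in nucARRB1 against GFP (0.90, SE 0.151, adjusted p = 0.000784) and by 1.13 against parental cells (adjusted p = 0.000218). The call against GFP was lost under median scaling (0.72, adjusted p = 0.0105) and without normalisation between arrays (0.75, adjusted p = 0.0172). In wtARRB1 the changes of 0.43 against GFP (adjusted p = 0.113) and 0.67 against parental cells (adjusted p = 0.0148) were not called. Without wtARRB1 replicate 2 both passed the threshold (0.72, adjusted p = 0.00979, and 0.96, adjusted p = 0.00212), and the change against parental did so too without either nucARRB1 array (adjusted p = 0.00964 and 0.00929).

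**Figure D2:**
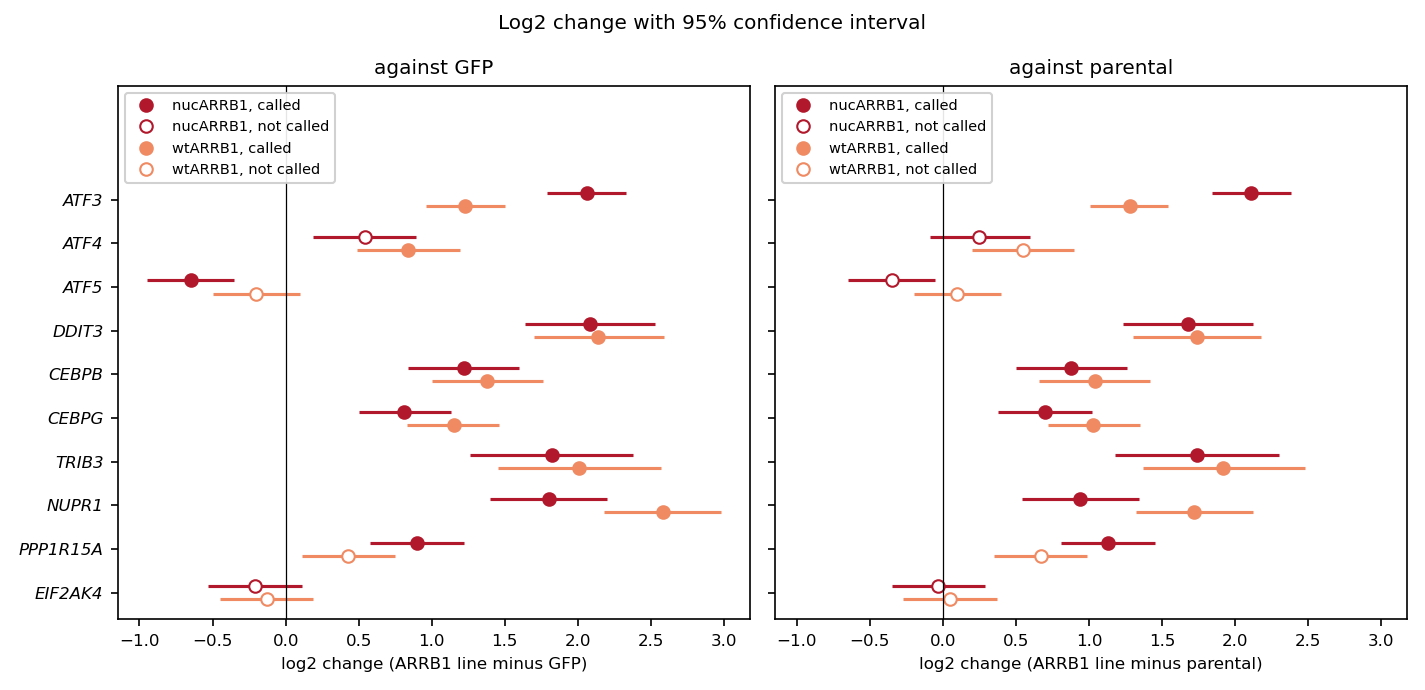
Log2 change of each gene in nucARRB1 and wtARRB1, against GFP on the left and against parental cells on the right, with 95% confidence intervals from the limma fit, and filled points passed an adjusted p of 0.01. The 2 lines lie side by side for DDIT3 (2.08 and 2.14 against GFP), nucARRB1 lies higher for ATF3 and wtARRB1 for NUPR1, with neither difference between the lines called, and the intervals of EIF2AK4 cross 0.

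Against parental cells, 7 of the 10 genes were called higher and 0 lower in nucARRB1, and 6 higher and 0 lower in wtARRB1, by limma. At an unadjusted p under 0.05, 1 was lower in nucARRB1 (ATF5) and 0 in wtARRB1. Over all genes, 3.09% were called higher and 3.56% lower in nucARRB1, and 2.48% higher and 2.39% lower in wtARRB1. The median change of the 10 was 0.91 in nucARRB1 and 1.04 in wtARRB1. DDIT3, TRIB3 and ATF3 had changes of at least 1.23 in each line against each control line.

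Between the ARRB1 lines themselves, 0 of the 10 genes were called either way, where 0.0643% of all genes (12) were. At an unadjusted p under 0.05 there were 4, with ATF3 and PPP1R15A higher in nucARRB1, and ATF5 and NUPR1 lower. The share of all genes at this looser threshold is not given here. The ATF3 difference was 0.83 (95% confidence interval 0.54 to 1.12, adjusted p = 0.0249), and it was called without nucARRB1 replicate 2 (0.98, adjusted p = 0.00235). NUPR1 differed by -0.77 (-1.21 to -0.34, adjusted p = 0.253), ATF5 by -0.45 (-0.78 to -0.12, adjusted p = 0.476) and PPP1R15A by 0.47 (0.11 to 0.82, adjusted p = 0.498). For DDIT3 the interval was -0.55 to 0.43, for TRIB3 -0.80 to 0.43 and for CEBPB -0.58 to 0.25, so differences of up to these sizes in either direction could not be told from 0.

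The empty vector was compared with the parental cells as the background for the ARRB1 lines. By limma 0 of the 10 genes were called in GFP against parental, and 0.0482% of all genes (9) were. At an unadjusted p under 0.05, for which no share of all genes is given here, there were 3. ATF5 was higher (0.30) and DDIT3 (-0.40) and NUPR1 (-0.86) were lower in GFP. NUPR1 had an adjusted p of 0.0613, or 0.00831 when the GFP and parental arrays were fitted alone. Its other probe differed by -0.81 (adjusted p = 0.0443), and all 3 GFP arrays lay below all 3 parental arrays on both probes. Of the 10 genes, 6 had a lower mean in GFP than in parental cells (ATF4, DDIT3, CEBPB, CEBPG, TRIB3 and NUPR1). By arithmetic, their changes in the ARRB1 lines were therefore smaller against parental than against GFP.

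**Figure D3:**
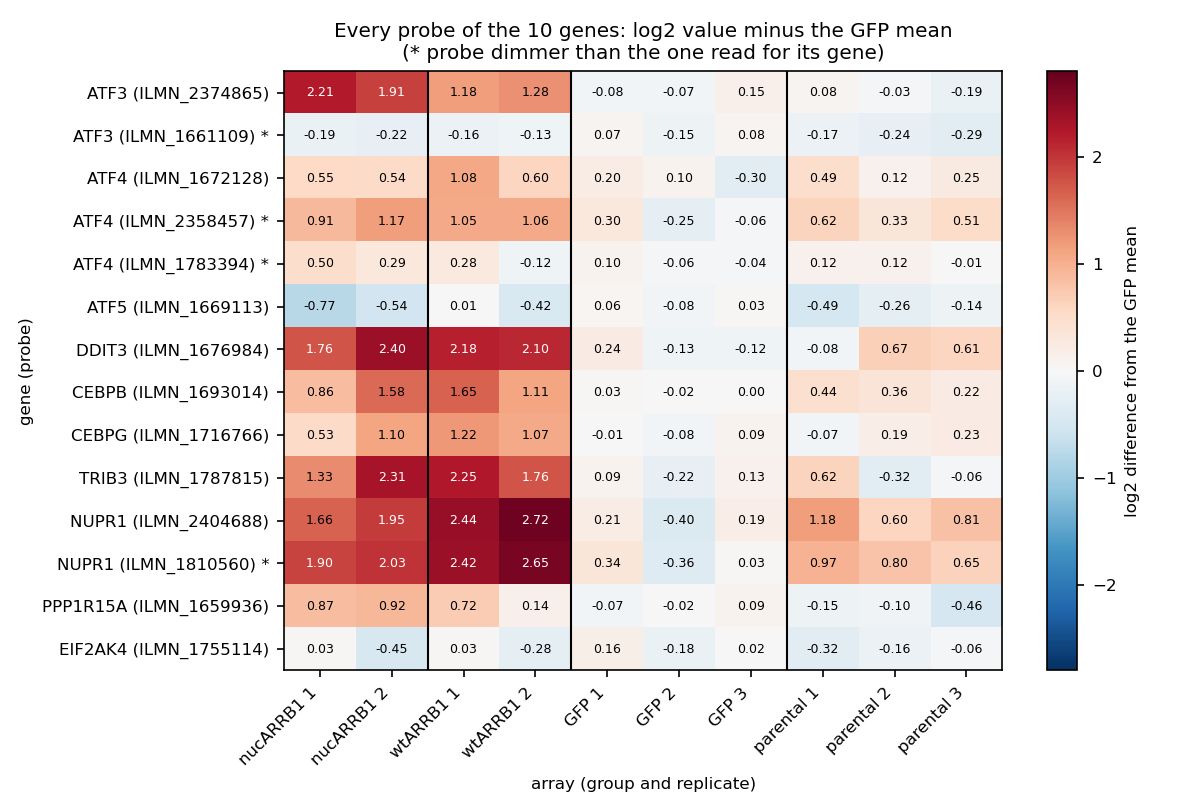
Log2 value of each of the 14 probes on every array minus the mean of the 3 GFP arrays for that probe, where columns are arrays in 4 groups, and an asterisk marks a probe dimmer than the one read for its gene. Both NUPR1 probes carry the same pattern (1.66 to 2.72 in the ARRB1 lines), the dim ATF3 probe lies between -0.29 and 0.08, and parental replicate 1 reaches 1.18 on NUPR1.

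Within each ARRB1 pair most of the 10 genes leaned the same way. No share of all genes is given beside these counts, which describe the 10 genes and not the arrays as a whole. Replicate 1 of nucARRB1 was below replicate 2 in 7 of the 10 genes, by 0.98 for TRIB3, 0.72 for CEBPB and 0.65 for DDIT3, and above it in 3. Replicate 1 of wtARRB1 was above replicate 2 in 8, by 0.57 for PPP1R15A and 0.54 for CEBPB, and below it in ATF3 and NUPR1. The levels of the 10 genes over the 10 arrays correlated pair by pair from -0.672 to 0.961 with a median of 0.752 over 45 pairs, given as a description, since all pairs share the arrays and their group differences. DDIT3 and CEBPG (0.961), CEBPB and TRIB3 (0.958) and CEBPB and CEBPG (0.948) were the closest pairs, ATF3 was closest to PPP1R15A (0.917), and ATF5 ran opposite to ATF3 (-0.672).

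The promoters of the 10 genes were read for the motifs through which this family of factors binds DNA. RefSeq (GRCh38.p14) windows of the 250 bases before a transcription start were found for 9 of the 10 genes, 18 windows in all, with NUPR1 not matched. The windows of ATF4, DDIT3 and TRIB3 overlap almost wholly within each gene, so a match there can be counted more than once. On either strand, the C/EBP-ATF element TGATGNAA was present in 2 of the 18 windows, 1 of ATF3 and 1 of CEBPG, and in 3.14% of 35116 windows of all genes. Each of these 2 genes has another window without it. The cAMP response element TGACGTCA was present in the PPP1R15A window alone of these and in 1.65% of all windows, and TGACG, which the full element contains, in 5 windows of 4 genes (ATF4, ATF5, CEBPB and PPP1R15A) and in 21.2% of all. The ER stress element, CCAAT and CCACG with 9 bases between them, was in 0 of the 18 windows and in 0.074% of all. A match is an exact run of letters and not a shown binding site. Near matches were not counted, and bases outside the windows were not read. The printed DDIT3 window holds CCAAT followed after 9 bases by CCACT, where the ER stress element has CCACG. On its other strand CCAAT is followed after 9 bases by GCACG. The windows with the full motifs are printed, with that of ATF4 as the head of the response. That of DDIT3 is printed as the gene with the largest change in nucARRB1 against GFP and no exact match. They run 5′ to 3′ on the strand of the gene, with matches in capitals.
ATF3, chr1:212565157-212565406, plus strand: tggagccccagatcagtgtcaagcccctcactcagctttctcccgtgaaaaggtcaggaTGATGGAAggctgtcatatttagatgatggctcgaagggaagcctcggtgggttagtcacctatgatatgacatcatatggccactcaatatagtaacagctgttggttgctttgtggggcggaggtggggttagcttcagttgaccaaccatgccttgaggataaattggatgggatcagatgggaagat
CEBPG, chr19:33373993-33374112, plus strand: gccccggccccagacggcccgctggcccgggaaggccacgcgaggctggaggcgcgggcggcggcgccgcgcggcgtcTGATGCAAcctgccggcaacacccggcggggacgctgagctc
PPP1R15A, chr19:48872171-48872420, plus strand: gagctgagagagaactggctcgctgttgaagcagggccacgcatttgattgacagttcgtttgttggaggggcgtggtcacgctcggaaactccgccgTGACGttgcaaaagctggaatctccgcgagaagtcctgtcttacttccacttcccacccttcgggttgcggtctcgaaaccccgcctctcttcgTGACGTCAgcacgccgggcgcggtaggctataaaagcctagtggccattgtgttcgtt
ATF4, chr22:39520309-39520558, plus strand: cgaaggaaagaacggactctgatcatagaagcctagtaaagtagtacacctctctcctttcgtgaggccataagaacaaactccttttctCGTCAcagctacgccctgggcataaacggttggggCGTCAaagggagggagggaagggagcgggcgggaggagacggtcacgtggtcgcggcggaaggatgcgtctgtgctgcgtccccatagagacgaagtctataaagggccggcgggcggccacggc
DDIT3, chr12:57520518-57520767, minus strand: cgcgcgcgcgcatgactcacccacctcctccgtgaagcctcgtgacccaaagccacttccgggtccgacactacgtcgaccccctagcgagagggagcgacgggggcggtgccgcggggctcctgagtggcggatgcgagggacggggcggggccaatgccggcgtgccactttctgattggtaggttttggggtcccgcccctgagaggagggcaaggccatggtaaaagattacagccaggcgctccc
In ATF3 the capitals mark the C/EBP-ATF element, whose first base lies 191 bases before the start, and in CEBPG the same element lies 42 bases before it, in the last 120 bases of that window. In PPP1R15A they mark TGACG at 152 and the full cAMP response element at 58 bases before the start, and in ATF4 the reverse complement of TGACG, at 160 and 125 bases. All 3 genes with an exact full motif rose in nucARRB1 against GFP. So did DDIT3, TRIB3 and CEBPB, whose windows hold no exact full motif.

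Other genes of the pathway, in lists written out by name, were read on the same arrays, with the 10 genes left out. The lists, too, were chosen with earlier results of these data known, so the shares beside them are a description. ATF4 targets for amino acid supply and secreted factors stood highest, with 22 of 32 measured genes called higher in nucARRB1 and 25 in wtARRB1 against GFP, 0 lower in either by limma or at an unadjusted p under 0.05, and medians of 0.89 and 1.15. Against GFP, CTH, which makes cysteine, rose by 3.21 in nucARRB1 (SE 0.185, adjusted p = 5.62e-08) and by 2.82 in wtARRB1 (adjusted p = 2.92e-07). DDIT4, an inhibitor of mTORC1, rose by 3.14 in nucARRB1 (adjusted p = 4.56e-06) and by 3.79 in wtARRB1 (adjusted p = 1.42e-06). The stress cytokine GDF15 rose by 2.66 in nucARRB1 (adjusted p = 1.69e-06) and by 2.94 in wtARRB1 (adjusted p = 1.1e-06). The share of all genes called higher was 4.97% and 4.26% against GFP. This list also holds STC2 and VEGFA, which the study names among known targets of the hypoxia factor HIF1A. Its genes are therefore not specific to ATF4, and which factor raised them was not tested. Against parental cells 16 of the 32 rose in nucARRB1 and 19 in wtARRB1, beside 3.09% and 2.48% of all genes. There CTH rose by 2.53 in nucARRB1 (adjusted p = 1.24e-06), and DDIT4 by 1.56 in nucARRB1 (adjusted p = 0.00299) and 2.21 in wtARRB1 (adjusted p = 0.000329). GDF15 rose there by 1.37 in nucARRB1 (adjusted p = 0.001) and by 1.65 in wtARRB1 (adjusted p = 0.000362). GFP itself differed from parental cells by -1.58 for DDIT4 (adjusted p = 0.027) and by -1.29 for GDF15 (adjusted p = 0.0169), neither of them called.

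Against GFP, the targets linked to CHOP in cell death and redox balance had 0 of 9 genes called in nucARRB1 by limma (4 higher and 1 lower at an unadjusted p under 0.05, median 0.05). In wtARRB1 1 was called (4 higher and 0 lower at an unadjusted p under 0.05, median 0.18). It was CHAC1, an enzyme that degrades glutathione, which rose by 1.08 (adjusted p = 0.000208). These counts stand beside 4.97% of all genes called higher in nucARRB1 and 4.26% in wtARRB1. In nucARRB1 against GFP, TNFRSF10B (0.63, adjusted p = 0.0106), CHAC1 (0.63, adjusted p = 0.011) and GADD45A (0.75, adjusted p = 0.0129) missed the threshold narrowly. PMAIP1 differed there by 0.65 (adjusted p = 0.0342) and BCL2L11 by -0.45 (adjusted p = 0.0217). These genes were named after their values were seen. Against parental cells 1 of the 9 was called in each line, GADD45A higher in nucARRB1 (1.08, adjusted p = 0.00127), named after its values were seen, and CHAC1 higher in wtARRB1 (1.05, adjusted p = 0.000576). Of 8 targets in mitochondrial proteostasis and survival tied to ATF5, 0 were called in either line against GFP by limma, with 1 higher and 1 lower in nucARRB1 and 2 higher in wtARRB1 at an unadjusted p under 0.05.

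The IRE1-XBP1 and ATF6 arms of the ER stress response had calls in both directions against GFP. Of 16 measured genes, 1 rose and 3 fell in nucARRB1, and 1 rose and 1 fell in wtARRB1, beside 4.97% higher and 5.89% lower of all genes in nucARRB1 and 4.26% and 4.7% in wtARRB1. DNAJB9, a chaperone of the ER lumen, rose by 2.03 in nucARRB1 and 2.02 in wtARRB1 (adjusted p = 1.1e-06 and 1.55e-06). SDF2L1 fell by 1.00 in nucARRB1 (adjusted p = 0.000101) and by 0.59 in wtARRB1 (adjusted p = 0.00928), and MANF, a secreted ER protein, fell by 0.82 in nucARRB1 (adjusted p = 0.00676). The other gene that fell in nucARRB1 was CRELD2 (-0.69, adjusted p = 0.00506), named like HSPA5 after its values were seen. HSPA5, the chief ER chaperone BiP, differed by 0.05 in nucARRB1 (adjusted p = 0.955) and 0.32 in wtARRB1 (adjusted p = 0.532). Against parental cells 1 rose and 6 fell in nucARRB1, beside 3.09% higher and 3.56% lower of all genes, and 1 rose and 2 fell in wtARRB1, beside 2.48% and 2.39%.

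The upstream machinery and the partners of the 10 genes were set against GFP in the same way. Of the other eIF2α kinases and their regulators (10 genes), 0 were called in nucARRB1 by limma (3 higher and 1 lower at an unadjusted p under 0.05), and in wtARRB1 DELE1 and OMA1, which relay mitochondrial stress to HRI, rose by 0.66 and 0.65 (adjusted p = 0.0034 and 0.00701), while GCN1, the ribosomal activator of GCN2, fell by 0.79 (adjusted p = 0.00599). These 2 higher and 1 lower stand beside 4.26% and 4.7% of all genes. EIF2AK3, which encodes PERK, read 6.29 in nucARRB1, 6.36 in wtARRB1 and 6.45 in GFP, near the array median, where a missing call says little. Against parental cells DELE1 rose by 0.75 in wtARRB1 (adjusted p = 0.00238), while OMA1 (0.33, adjusted p = 0.271) and GCN1 (-0.62, adjusted p = 0.042) were not called. Among 12 genes of eIF2, eIF2B and the eIF2α phosphatase, EIF2S3, the γ subunit of eIF2, rose by 0.68 in nucARRB1 and 0.61 in wtARRB1, EIF2B5, the catalytic subunit of eIF2B, fell by 0.64 and 0.71, and PPP1CC, a catalytic subunit of protein phosphatase 1, fell by 0.68 and 0.58 (adjusted p from 0.000521 to 0.00652). In each line that is 1 higher and 2 lower, beside 4.97% and 5.89% of all genes in nucARRB1 and 4.26% and 4.7% in wtARRB1. Against parental cells EIF2S3 rose by 0.75 in nucARRB1 (adjusted p = 0.000434) and 0.68 in wtARRB1 (adjusted p = 0.00125). EIF2B5 (-0.29 and -0.36, adjusted p = 0.23 and 0.119) and PPP1CC (-0.51 and -0.40, adjusted p = 0.0194 and 0.0825) were not called there in either line.

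Of 34 other bZIP factors, CEBPA, a further C/EBP factor, fell against GFP by 0.60 in nucARRB1 (adjusted p = 0.00298) and 0.71 in wtARRB1 (adjusted p = 0.00099), and the other 33 were not called against GFP in either line, where 5.89% and 4.7% of all genes were lower. Many of the 33 read near the array median, such as BATF (6.22 in GFP) and FOSL2 (6.12 in GFP), where a missing call says little. Against parental cells CEBPA differed by -0.11 in nucARRB1 (adjusted p = 0.797) and -0.22 in wtARRB1 (adjusted p = 0.468), and by 0.48 in GFP (adjusted p = 0.113), none of them called. The bZIP factor called against parental cells was NFIL3, named after its values were seen, higher by 0.59 in nucARRB1 (adjusted p = 0.00294), and in wtARRB1 0 were called by limma (5 higher and 0 lower at an unadjusted p under 0.05). AKT1, the kinase to which TRIB3 binds, fell against GFP by 0.76 in nucARRB1 (adjusted p = 0.000361) and 0.64 in wtARRB1 (adjusted p = 0.00202), and the other 4 measured relatives and partners of TRIB3 and NUPR1 were not called there. Against parental cells AKT1 fell by 0.60 in nucARRB1 (adjusted p = 0.00407) and differed by -0.48 in wtARRB1 (adjusted p = 0.0243), which was not called.

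**Figure D4:**
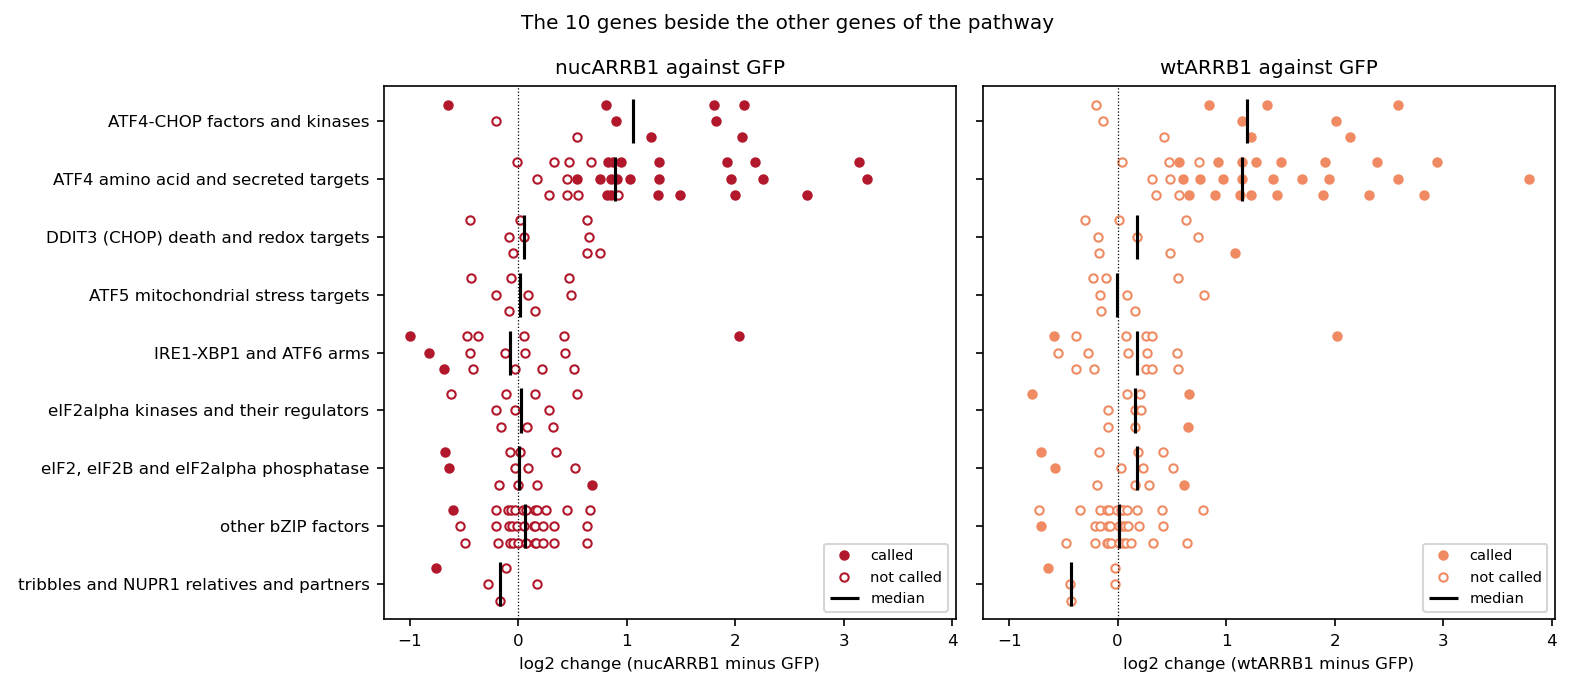
Log2 change against GFP of the 10 genes and of the genes of each pathway list, in nucARRB1 on the left and wtARRB1 on the right, where each point is a gene, filled where called, and the bar is the median of the list. The ATF4 targets have medians of 0.89 and 1.15 beside 1.06 and 1.19 for the 10 genes, and the medians of the other lists lie between -0.43 and 0.18.

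The genes whose levels ran most like each of the 10 over the 10 arrays were also sought, by Pearson correlation. ATF3 was followed most closely by FERMT2 (r = 0.991), TRIB3 by VPS37D (0.991), CEBPB by TMED10P1 (0.988), CEBPG by PREPL (0.984), ATF4 by PKD1 (0.973) and PPP1R15A by SNAP91 (0.960). Targets of the response stood among the 3 nearest genes of DDIT3 (STC2, 0.965), CEBPB (SLC3A2, 0.980) and NUPR1 (DDIT4, 0.975). None of the other nearest genes was on the pathway lists. STC2 is also among the HIF1A targets that the study names. The correlations are a description, since genes that differ between the groups run alike over these arrays. For ATF5 the nearest was EIF3G (0.953), and for EIF2AK4 it was DLX3 at 0.898, the lowest of the 10.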

How the data were processed

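Biotin-labelled cRNA made from total RNA of C4-2 cells was read on Illumina expression BeadChips. The authors pre-processed the arrays in R with beadarray and deposited log2 values before and after quantile normalisation. Background correction, detection p-values and probe sequences were not used here, so signal over background was not measured, and the number of arrays limits the precision. The deposited log2 values without normalisation were quantile-normalised with limma 3.58.1 in R 4.3.3, and differed from the authors' normalised values by at most 0.0232. Means of the 4 groups were fitted to all 10 arrays (lmFit and eBayes, two-sided, 6 residual and 9.82 prior degrees of freedom), with the Benjamini-Hochberg adjustment over 48801 probes. A gene was called at an adjusted p of 0.01 or less. A single symbol was found for 27576 probes, several for 13 and none here for 21212, and the brightest probe stood for each of the 18664 genes. The fit was tested on simulated data. Named pathway genes were, per list, up to 2 called genes with the largest rise and 2 with the largest fall against GFP, and the 3 best-correlated genes of each of the 10. The 10 genes and the lists were chosen with earlier results of these data known. Same-numbered arrays of different groups did not deviate together (r from -0.084 to 0.054, 13 pairs), so the numbers were not used as pairs. Promoter windows came from RefSeq (GRCh38.p14). The alternatives were median scaling, no normalisation, the authors' normalised values, a filter on dim probes, the mean of all probes, fits of 2 groups alone, array weights, an intensity-dependent prior, a replicate block, and leaving out single arrays or, added after the data were seen, both nucARRB1 replicate 1 and parental replicate 1.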

Additional observations from a re-analysis of the deposited data

How the results depend on the processing

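Over 20 alternatives and 6 comparisons, 1105 of 1200 gene results kept their direction and their side of the threshold, 54 lost a call, 9 gained one and 32 changed sign. All of those that changed sign were uncalled. The counts of genes called higher against GFP stayed within 1.5 times throughout. The 1 gene called lower in nucARRB1 against GFP, ATF5, was lost (0 called) without normalisation between arrays, with the intensity-dependent prior, with the replicate block and without both nucARRB1 replicate 1 and parental replicate 1, and the count was 0 to 1 when single arrays were left out. The 7 genes called higher in nucARRB1 against parental were 4 under median scaling, without normalisation and with the replicate block, and 4 to 7 without single arrays, the lost calls being CEBPB, CEBPG and NUPR1. In GFP against parental, 1 gene (NUPR1) was lower when only those groups were fitted. In nucARRB1 against wtARRB1, 0 to 1 was higher without single arrays. The replicate block was fitted although same-numbered arrays did not deviate together, and the labels do not say whether they share a batch. It ended the call of ATF5 (-0.60, adjusted p = 0.028) in nucARRB1 against GFP, of CEBPB (0.85), CEBPG (0.75) and NUPR1 (0.98) in nucARRB1 against parental and of CEBPB (1.01) in wtARRB1 against parental, and changed no other call. Under median scaling the calls of CEBPG (0.59, adjusted p = 0.0587) and PPP1R15A (0.72, adjusted p = 0.0105) in nucARRB1 against GFP were lost. Where 1 array of a line was left, it was assumed to vary like the other groups. The cause of these shifts was not tested.

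Genes called over the whole array split differently with the scaling. In nucARRB1 against GFP, 927 were higher and 1100 lower, or 512 and 1316 under median scaling, and in wtARRB1 against GFP 795 and 877, or 345 and 1264. Against parental cells nucARRB1 had 576 and 664, or 311 and 702, and wtARRB1 462 and 447, or 183 and 603. Without normalisation the median of all genes moved to -0.119 in wtARRB1 against GFP, -0.162 in wtARRB1 against parental and 0.127 in nucARRB1 against wtARRB1. CEBPG in wtARRB1 against parental was not called there (0.66, adjusted p = 0.0735) nor under median scaling (0.79, adjusted p = 0.0193), and the cause was not tested.

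Of the uncalled changes that turned sign, ATF5 and EIF2AK4 in wtARRB1 against parental were -0.13 and -0.14 under median scaling and -0.25 and -0.26 without normalisation, and without single arrays ran from -0.12 to 0.31 and from -0.10 to 0.21. In nucARRB1 against wtARRB1, DDIT3, CEBPB and EIF2AK4 were 0.08, 0.01 and 0.09 without normalisation. Without single arrays DDIT3 ran there from -0.38 to 0.26, CEBPB from -0.52 to 0.19, TRIB3 from -0.67 to 0.30 and EIF2AK4 from -0.32 to 0.16. EIF2AK4 ran from -0.45 to 0.03 in nucARRB1 and from -0.29 to 0.03 in wtARRB1 against GFP, and from -0.27 to 0.21 in nucARRB1 against parental, where the replicate block gave 0.01. ATF5 ran from -0.42 to 0.01 in wtARRB1 against GFP. In GFP against parental ATF3 ran from -0.03 to 0.11 and TRIB3 from -0.28 to 0.19. Without both nucARRB1 replicate 1 and parental replicate 1, EIF2AK4 was -0.33 in nucARRB1 and -0.02 in wtARRB1 against parental, TRIB3 was 0.19 in GFP against parental, and DDIT3, CEBPB and TRIB3 were 0.26, 0.19 and 0.30 in nucARRB1 against wtARRB1.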
